A study of Mus musculus with 2 samples.

Results

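The interleukin-1 (IL-1) family and the neutrophil chemoattractants were represented here by 9 genes chosen by symbol, out of 32285 genes counted: the agonists Il1a and Il1b, the antagonist Il1rn, the decoy receptor Il1r2, the related cytokine Il18, the chemokines Cxcl1, Cxcl2 and Cxcl3, and their receptor Cxcr2. The counts came from CD45+ cells, that is leukocytes, sorted from the left flank tumor of male C57BL/6 mice that carried the mouse colon cancer line MC38 on both flanks. In all mice the right tumor was treated by microwave ablation (MWA) at about 300 mm3, while the left tumor was not ablated, and it was taken on day 8 after MWA. There was 1 library of the MWA group, which received an isotype control antibody, and 1 of the MWA plus TIGIT group, which received an antibody that blocks the coinhibitory receptor TIGIT. The antibody was given intraperitoneally from day 1 after MWA and then every 3 days, with 3 injections in the labels and 4 in the methods of the study. The mice were 6 to 8 weeks old, and the number of mice behind each library was not stated. The groups do not contain an untreated tumor, so the values say nothing about MWA itself.

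IL-1α and IL-1β bind the same receptor, recruit the adaptor MyD88 and switch on NF-kB, while the product of Il1rn occupies that receptor without a signal and the product of Il1r2 binds IL-1 without passing it on. The precursor of IL-1β, like that of IL-18, is cut by caspase-1 in inflammasomes, so transcript levels do not give the amount of active cytokine. CXCL1, CXCL2 and CXCL3 attract neutrophils through CXCR2, and in tumors they are known mainly from macrophages, monocytes, neutrophils and cancer cells, the last of which a sort on CD45 leaves out.

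The start regions of the chemokine genes and of the agonists are shown first, because the chemokines share a stretch of letters there that the agonists lack. Each line gives 120 bases before the RefSeq start on build GRCm38.p6, read 5′ to 3′ on the strand of the gene, with capitals for every match to GGGA and TTCC with 2 bases between them, a form of the NF-kB site, to TGANTCA, an AP-1 site, or to TATAAA on either strand. The places are chr5:90891125-90891244 on the plus strand for Cxcl1, chr5:90903779-90903898 on the plus strand for Cxcl2, chr5:90785981-90786100 on the plus strand for Cxcl3, chr2:129371140-129371259 on the minus strand for Il1b and chr2:129309973-129310092 on the minus strand for Il1a.
Cxcl1: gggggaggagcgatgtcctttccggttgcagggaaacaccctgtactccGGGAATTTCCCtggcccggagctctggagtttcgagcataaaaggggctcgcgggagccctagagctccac
Cxcl2: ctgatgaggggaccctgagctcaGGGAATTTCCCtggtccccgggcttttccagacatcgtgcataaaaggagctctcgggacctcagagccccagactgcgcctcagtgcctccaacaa
Cxcl3: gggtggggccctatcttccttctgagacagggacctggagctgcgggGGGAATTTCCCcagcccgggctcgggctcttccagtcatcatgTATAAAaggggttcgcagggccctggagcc
Il1b: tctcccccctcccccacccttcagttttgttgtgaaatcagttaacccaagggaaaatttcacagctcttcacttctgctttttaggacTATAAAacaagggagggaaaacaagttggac
Il1a: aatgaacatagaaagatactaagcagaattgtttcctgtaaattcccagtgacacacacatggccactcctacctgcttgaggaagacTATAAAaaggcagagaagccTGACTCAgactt

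Over 250 bases before the start, and on either strand, this NF-kB form was found in 1.21% of 32851 RefSeq start regions, and among the 11 start regions of the 9 genes it was found in those of Cxcl1, Cxcl2 and Cxcl3. TGANTCA was found in 6.75% of all start regions, with Il1a and Il1rn among them. TATAAA was found in 12.4%, including those of Il1a, Il1b, Il18 and Cxcl3. ACGTG, a part of hypoxia response elements, was found in 16.6%, including those of Il1r2, Cxcl1 and Cxcl3, and GAAA repeated after 2 bases, a form of interferon response elements, in 2.98% and in none of the 9 genes. A match is a string of letters and not a bound site. The transcripts of Cxcl2 and Cxcl3 shared a longest stretch of 157 bases. The longest stretch of each pair of their transcripts lay at least 850 bases from both 3′ ends, except in a Cxcl2 transcript of 397 bases, where it lay 227 bases from the end, and reads were taken from 3′ ends. Cxcl1, Cxcl2 and Cxcl3 lie close together on chromosome 5, and Il1a and Il1b on chromosome 2.

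Unique molecular identifiers (UMIs), each marking 1 captured transcript molecule, were summed over the cells of a class in a library and divided by all UMIs of that class and scaled to 1000000, which gives CPM. Each CPM has an exact Poisson 95% interval and each ratio of the libraries, MWA plus TIGIT over MWA on the log2 scale, an exact conditional binomial 95% interval. With 1 library per group there is no test between the groups. The intervals cover counting error only, not the variation between cells, mice or libraries. They treat UMIs as independent, so they are too narrow where few cells hold most UMIs of a gene, also for the order of classes. The counts are of 3′ ends, so they do not grow with transcript length. After filtering, 9231 and 9127 cells remained, with medians of 5332 and 6309 UMIs, and 28 kept cell barcodes occurred in both libraries. Cell classes were named by markers that excluded the 9 genes. They comprised 104 and 88 neutrophil-like cells, 2886 and 3064 monocyte-like and macrophage-like cells in 5 classes, and 147 and 112 dendritic cell (DC)-like cells in 3 classes, in the MWA and MWA plus TIGIT libraries. Interferon-induced-like cells, cycling-like cells and a large unnamed cluster led by MHC class II genes (554 and 601 cells) were kept apart from the 5. The hypoxic macrophage-like class was also led by heat shock genes such as Hspa1b. In bulk sums of this kind, fewer cells that carry a transcript and less of it per cell cannot be told apart without the shares of cells, which are therefore given.

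The defining markers of neutrophils were present in the neutrophil-like class, where all 13 listed markers were detected and S100a8 stood at 31307 and 61728 CPM. The cells were small, with medians of 957.5 and 1151 UMIs. However, 5 cells of the MWA library and 3 of the MWA plus TIGIT library had over 3000 UMIs, up to 14868. They held 24.3% and 14.7% of all UMIs of the class, 63.6% and 73.2% of its UMIs from 10 T cell markers (89 of 140 and 30 of 41), and only 3.71% and 0.963% of its Cxcl2 UMIs. Of its S100a8 and S100a9 UMIs they held 2.14% in the MWA library but 16.1% in the MWA plus TIGIT library. Leaving them out therefore also removed neutrophil marker UMIs from the latter. The ratios of the 9 genes in neutrophil-like cells are also given without the cells over 3000 UMIs, where there were enough UMIs, a limit set after the data had been seen.

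Il1b, the main secreted agonist, had 15674 UMIs in the MWA library and 17995 in the MWA plus TIGIT library, against 721 and 733 of Il1a, whose product also acts as an alarm signal from dying cells. By CPM, Il1b was highest in neutrophil-like cells, at 5853 CPM (5461 to 6266) and 7687 CPM (7201 to 8198). Type 2 DC-like cells came next with 1525 (1390 to 1669) and 1955 CPM (1817 to 2102), then Spp1 monocyte-like cells with 1460 (1408 to 1513) and 1361 CPM (1320 to 1403). In the MWA library these neighbors in the order did not differ beyond their intervals. Hp monocyte-like cells had 984 and 1067 CPM, the MHC class II-led cluster 880 and 843 CPM and interferon-induced-like cells 580 and 407 CPM. The macrophage-like classes were far lower, from 214 and 210 CPM in Selenop macrophage-like cells to 127 and 84.2 CPM in hypoxic macrophage-like cells. T and NK cell-like cells, taken here as the level of free RNA, stood at 10.5 and 8.66 CPM, and type 1 DC-like cells stood at 97.2 and 96.0 CPM.

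In neutrophil-like cells, Il1b was found in 77.9% and 77.3% of cells, with a median of 4.5 and 5 UMIs per cell and highest values of 36 and 50. The share of cells thinned to 1000 UMIs was 81.6% and 80.0%, beside 1.12% and 1.10% in T and NK cell-like cells, whose median depths were 3426.5 and 3595 UMIs. The ratio of Il1b was 0.39 (0.26 to 0.53), and 0.24 (0.10 to 0.38) without the cells over 3000 UMIs. Both were under the limit of 1.5-fold that was used to call a difference. With doublets kept the direction turned, to −0.19, in a new clustering with 94 and 89 neutrophil-like cells. The level in CPM was above that of all monocyte-like and macrophage-like cells by 18.5-fold (17.2 to 19.9) and 26.6-fold (24.8 to 28.4). Those cells were larger, with medians of 7646.5 and 9499.5 UMIs against 957.5 and 1151, so UMIs of Il1b per cell differed less. The 104 and 88 neutrophil-like cells held 826 and 929 Il1b UMIs. The 352 and 397 Spp1 monocyte-like cells held 2961 and 4145, and the 52 and 48 type 2 DC-like cells 472 and 736. Per cell, the type 2 DC-like class thus held more Il1b UMIs than the neutrophil-like class in both libraries. The Spp1 monocyte-like class held more per cell in the MWA library.

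**Figure D1:**
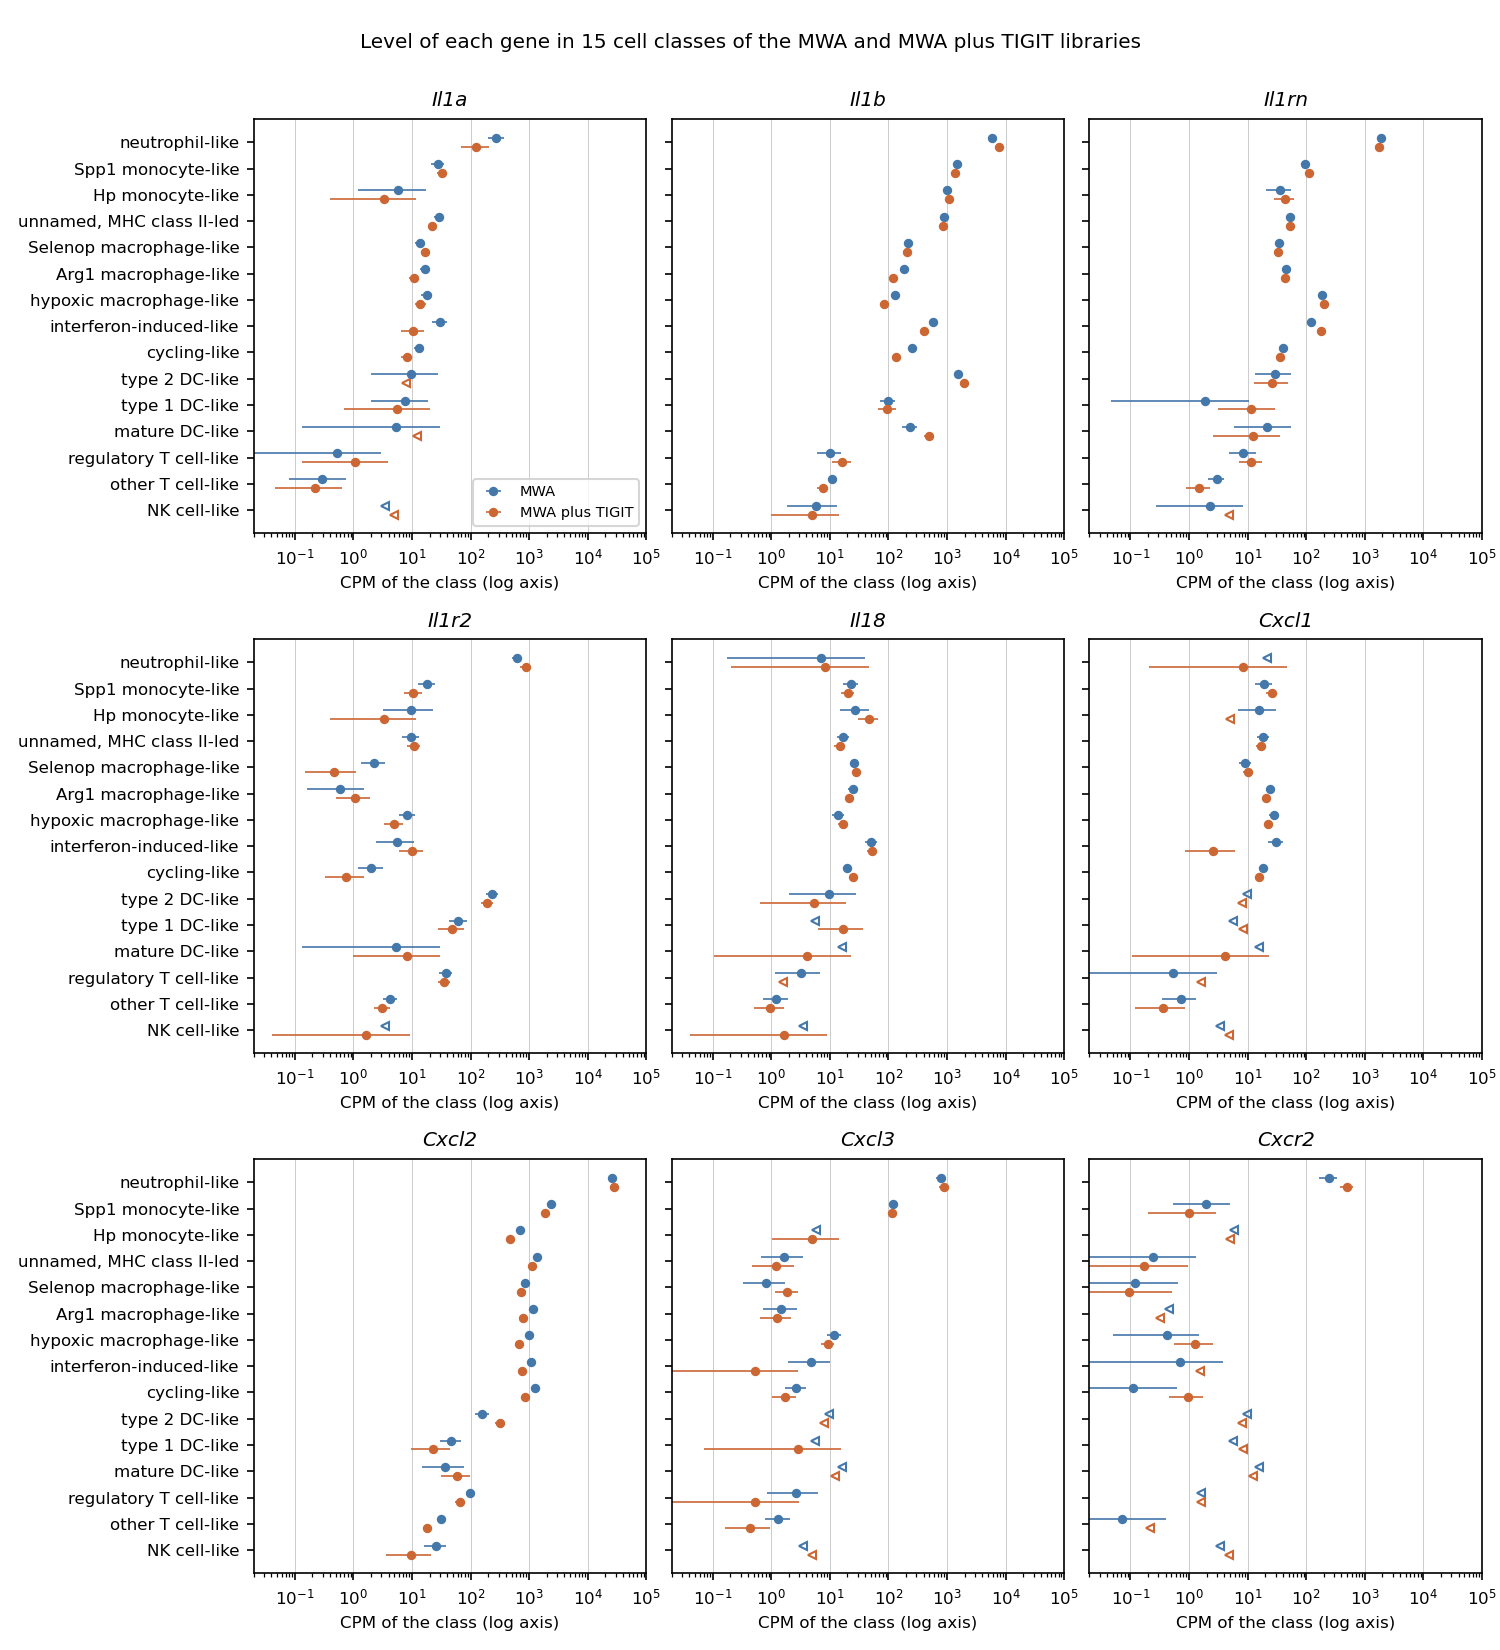
Level of each of the 9 genes in CPM, on a log axis, in each cell class of the MWA and the MWA plus TIGIT library, with exact Poisson 95% intervals as bars and open triangles at the level that a count of 0 allows, that is 3 counts. Il1b, Cxcl2, Cxcl3, Il1rn, Il1r2, Il1a and Cxcr2 were highest in the neutrophil-like class, for example Cxcl2 at 25759 and 28357 CPM, while Il18 stood at 50.6 and 52.2 CPM in interferon-induced-like cells and Cxcl1 was nearly absent from neutrophil-like cells.

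In the macrophage-like classes, Il1b was lower in the MWA plus TIGIT library in Arg1 macrophage-like cells, from 182 to 120 CPM, a ratio of −0.61 (−0.73 to −0.49), and in hypoxic macrophage-like cells, from 127 to 84.2 CPM, a ratio of −0.60 (−0.77 to −0.42). Of all genes tested, 2.98% and 4.52% were past 1.5-fold in that direction in these classes. It was also lower in cycling-like cells, from 249 to 134 CPM, a ratio of −0.89 (−0.99 to −0.80), where 2.65% of genes were lower. It was close in Selenop macrophage-like cells, with a ratio of −0.03 (−0.12 to 0.06), and in all monocyte-like and macrophage-like cells together the ratio was −0.13 (−0.17 to −0.08). Il1b was concentrated in few macrophages. The tenth of the Arg1 macrophage-like cells with most Il1b held 79.5% and 83.2% of its UMIs, and 26.1% and 24.2% of these cells had any. Markers of T cells, a measure of RNA from other cells, were also lower in the MWA plus TIGIT library, at 31.4 and 19.3 CPM in Arg1 and 38.7 and 18.5 CPM in hypoxic macrophage-like cells. A list of 11 immediate early and dissociation genes stood at 6110 and 5219 CPM and at 5615 and 5565 CPM. Their part in the result was not tested.

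In DC-like cells, Il1b was higher in the MWA plus TIGIT library, from 550 (505 to 597) to 915 CPM (856 to 977), a ratio of 0.74 (0.58 to 0.89). Of the 4 genes with at least 20 UMIs there, 2 were past 1.5-fold higher, Il1b and Cxcl2, as were 13.4% of 6830 genes. With a limit of 5% mitochondrial UMIs the ratio of Il1b was 0.46, under 1.5-fold. The class mix differed as well, since type 1 DC-like cells, which were low in Il1b, were 61 of 147 and 30 of 112 cells. Within type 2 DC-like cells the ratio was 0.36 (0.19 to 0.53). With all UMIs counted, Il1b was found in 55.8% and 77.1% of these cells, whose median depths were 5573.5 and 7677 UMIs. The part of depth in these shares was not tested. Within type 1 DC-like cells the ratio was −0.02 (−0.69 to 0.63). In mature DC-like cells, 34 in each library, Il1b had 44 and 120 UMIs, a ratio of 1.09 (0.58 to 1.62), although the share of cells with it was 41.2% and 35.3%. The tenth of cells with most Il1b held 61.4% and 83.3% of its UMIs, and the highest cell had 11 and 32. In this class 16.8% of 2453 genes were past 1.5-fold higher.

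By CPM, Il1a was highest in neutrophil-like cells as well, at 276 CPM (197 to 378) and 124 CPM (69.5 to 205). It was the only one of the 7 genes with at least 20 UMIs there that was past 1.5-fold lower in the MWA plus TIGIT library, with 39 and 15 UMIs and a ratio of −1.15 (−2.12 to −0.26), or −1.29 (−2.26 to −0.39) without the cells over 3000 UMIs. In this class 25.1% of 1611 genes were past 1.5-fold lower and 16.0% higher, so a call of this kind was common. The gene was found in 21.2% and 7.95% of these cells, and together with Il1b in 19.2% and 4.55%. In interferon-induced-like cells it had 43 and 20 UMIs, a ratio of −1.51 (−2.36 to −0.72). In all monocyte-like and macrophage-like cells it had 16.5 and 15.5 CPM, a ratio of −0.10 (−0.30 to 0.10). Arg1 macrophage-like cells had 16.9 and 10.7 CPM, past 1.5-fold lower at −0.66 (−1.06 to −0.26), whereas Selenop macrophage-like cells stood at 0.29 (−0.06 to 0.64). Cycling-like cells were also past 1.5-fold lower, at −0.72 (−1.14 to −0.31). Il1a made up 4.51% and 1.59% of the agonist UMIs of neutrophil-like cells and 12.3% and 14.1% of those of hypoxic macrophage-like cells. The 352 and 397 Spp1 monocyte-like cells held 56 and 99 Il1a UMIs. Per cell this was more than in neutrophil-like cells in the MWA plus TIGIT library.

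Il1rn, which encodes the receptor antagonist, had 1899 CPM (1679 to 2141) and 1779 CPM (1549 to 2033) in neutrophil-like cells and was found in 69.2% and 68.2% of them. After thinning to 1000 UMIs the shares were 63.3% and 60.0%, beside 0.39% and 0.37% in T and NK cell-like cells. Its ratio there was −0.09 (−0.36 to 0.17), and −0.24 (−0.51 to 0.03) without the cells over 3000 UMIs. Of the macrophage-like classes, the hypoxic one stood out with 188 CPM (176 to 200) and 201 CPM (190 to 212), above the 45.5 and 42.9 CPM of Arg1 and the 34.3 and 33.2 CPM of Selenop macrophage-like cells. This class held 32.0% and 33.4% of all Il1rn UMIs. Interferon-induced-like cells had 120 CPM (103 to 139) and 176 CPM (158 to 196), a ratio of 0.55 (0.28 to 0.83), just under 1.5-fold. DC-like cells had only 14 and 17 UMIs of Il1rn.

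The balance of agonist and antagonist therefore differed between classes. In hypoxic macrophage-like cells Il1b made up 40.4% (37.9 to 42.9) and 29.6% (27.4 to 31.8) of the UMIs of Il1b and Il1rn together, so that the antagonist had more UMIs than the agonist in both libraries. In neutrophil-like cells Il1b made up 75.5% (72.8 to 78.0) and 81.2% (78.8 to 83.4), and in Arg1 macrophage-like cells 80.0% and 73.6%. It made up 82.9% and 69.8% in interferon-induced-like and 86.2% and 78.8% in cycling-like cells. The share was 92.4% or more in Spp1 and Hp monocyte-like cells, in the MHC class II-led cluster and in type 2 DC-like cells of both libraries. Both transcripts were found in the same cell in 51.9% and 51.1% of neutrophil-like cells.

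**Figure D2:**
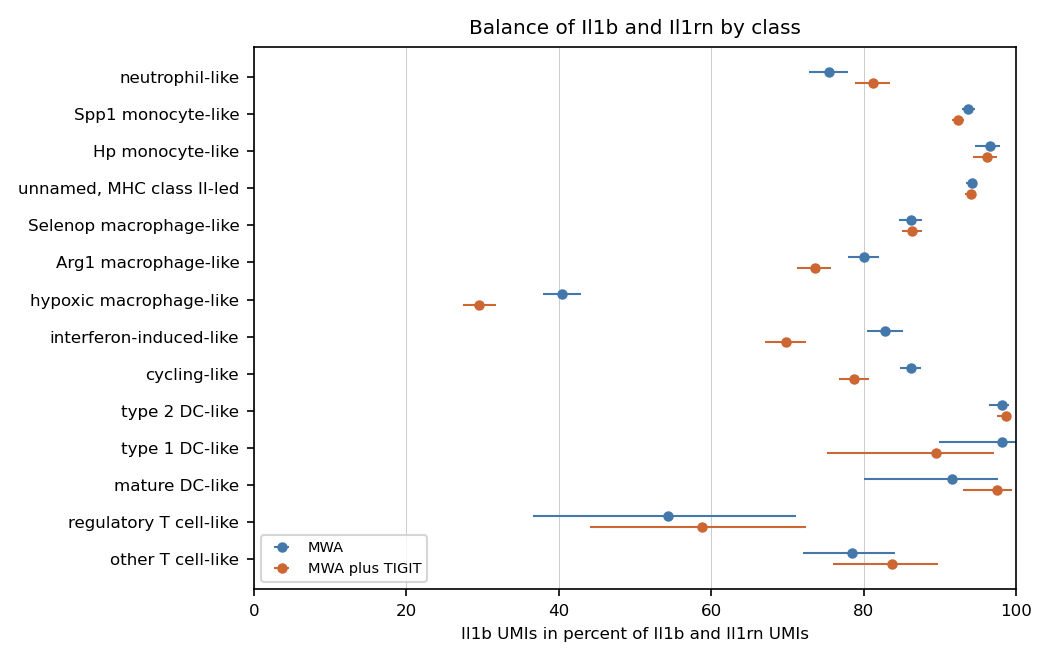
Share of Il1b in the UMIs of Il1b and Il1rn, in percent, for 14 classes in the MWA and the MWA plus TIGIT library, with exact binomial 95% intervals. Of the classes shown, hypoxic macrophage-like cells lay lowest at 40.4% and 29.6%, and the monocyte-like classes at 92.4% or more.

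Il1r2, the decoy receptor, was spread over unlike cells. Neutrophil-like cells had 624 CPM (500 to 768) and 869 CPM (711 to 1052), a ratio of 0.48 (0.06 to 0.90), which was 0.29 (−0.15 to 0.73) without the cells over 3000 UMIs and −0.06 with doublets kept. Type 2 DC-like cells had 233 CPM (182 to 293) and 194 CPM (152 to 244), and type 1 DC-like cells 61.7 and 48.0 CPM. With all UMIs counted, Il1r2 was found in 48.1% and 58.3% of type 2 DC-like cells, whose median depths were 5573.5 and 7677 UMIs. The 52 and 48 type 2 DC-like cells held 72 and 73 Il1r2 UMIs. Per cell this was more than the 88 and 105 UMIs in 104 and 88 neutrophil-like cells. Among lymphocytes, regulatory T cell-like cells, named by Foxp3 and other markers, had 37.6 CPM (29.4 to 47.4) and 35.6 CPM (27.5 to 45.3), against 4.27 and 3.07 CPM in other T cell-like cells. Within these other T cells, a cluster led by Ccl1 and Nrgn had 16.6 and 21.2 CPM, and a cluster led by Ccl5 and Cd8b1 had 0.711 and 0.284 CPM. NK cell-like cells had 0 and 1 UMI, and neutrophil markers summed to 16.1 and 15.6 CPM in all T and NK cell-like cells. Of all Il1r2 UMIs, 25.8% and 22.2% lay in T and NK cell-like, 20.9% and 18.8% in DC-like, 20.5% and 16.3% in monocyte-like and macrophage-like and 17.4% and 21.4% in neutrophil-like cells, and 7.89% and 13.1% in the MHC class II-led cluster.

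In all monocyte-like and macrophage-like cells, Il1r2 was the only one of 8 genes tested that was past 1.5-fold, lower in the MWA plus TIGIT library, with 104 and 80 UMIs, 4.61 CPM (3.77 to 5.59) and 2.66 CPM (2.11 to 3.31), and a ratio of −0.79 (−1.23 to −0.36). Past 1.5-fold lower were 3.25% of 12216 genes and past 1.5-fold higher 2.96%. In NK cell-like cells Il1r2 stood at 0 and 1.63 CPM. T cell markers in the same monocyte-like and macrophage-like cells stood at 35.7 and 20.4 CPM, and their part in the result was not tested. The ratio was under 1.5-fold with doublets kept, at −0.32, with a limit of 5% mitochondrial UMIs, at −0.46, and with the 9 genes used in the clustering, at −0.36.

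Il18, which drives interferon-γ in T and NK cells and whose precursor many macrophages hold at rest, showed another pattern. It was highest in interferon-induced-like cells, at 50.6 CPM (39.6 to 63.6) and 52.2 CPM (42.5 to 63.5), and lay between 13.9 and 46.1 CPM in the monocyte-like and macrophage-like classes. Neutrophil-like cells had 1 UMI in each library. All monocyte-like and macrophage-like cells had 22.6 CPM (20.7 to 24.6) and 23.1 CPM (21.4 to 24.9), a ratio of 0.03 (−0.13 to 0.20). No single one of these cells had more than 3 and 5 UMIs of Il18.

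Cxcl2 was by far the most abundant of the 9 genes, with 48136 and 47016 UMIs. A neutrophil-like cell had a median of 21.5 and 20.5 Cxcl2 UMIs, at most 282 and 264, and the transcript was found in 96.2% and 93.2% of them. After thinning to 1000 UMIs the shares were 95.9% and 92.0%, beside 3.1% and 2.26% in T and NK cell-like cells. At 25759 CPM (24928 to 26610) and 28357 CPM (27415 to 29322), it made up a median of 2.13% and 1.96% of the UMIs of a cell. The ratio was 0.14 (0.07 to 0.21), but it was 0.01 (−0.06 to 0.07) without the cells over 3000 UMIs, at 32778 and 32910 CPM, and the direction turned, to −0.44 with doublets kept and −0.18 with a limit of 5% mitochondrial UMIs. The level in CPM was 11.1-fold (10.6 to 11.5) and 15.02-fold (14.4 to 15.7) that of Spp1 monocyte-like cells, the next class, with 2330 and 1888 CPM. Cells of that class were larger, with medians of 5367.5 and 7334 UMIs, so the fold in Cxcl2 UMIs per cell was smaller. Neutrophil-like cells still held only 7.55% and 7.29% of all Cxcl2 UMIs, since they were 1.13% and 0.964% of cells, while monocyte-like and macrophage-like cells held 51.4% and 54.4%.

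**Figure D3:**
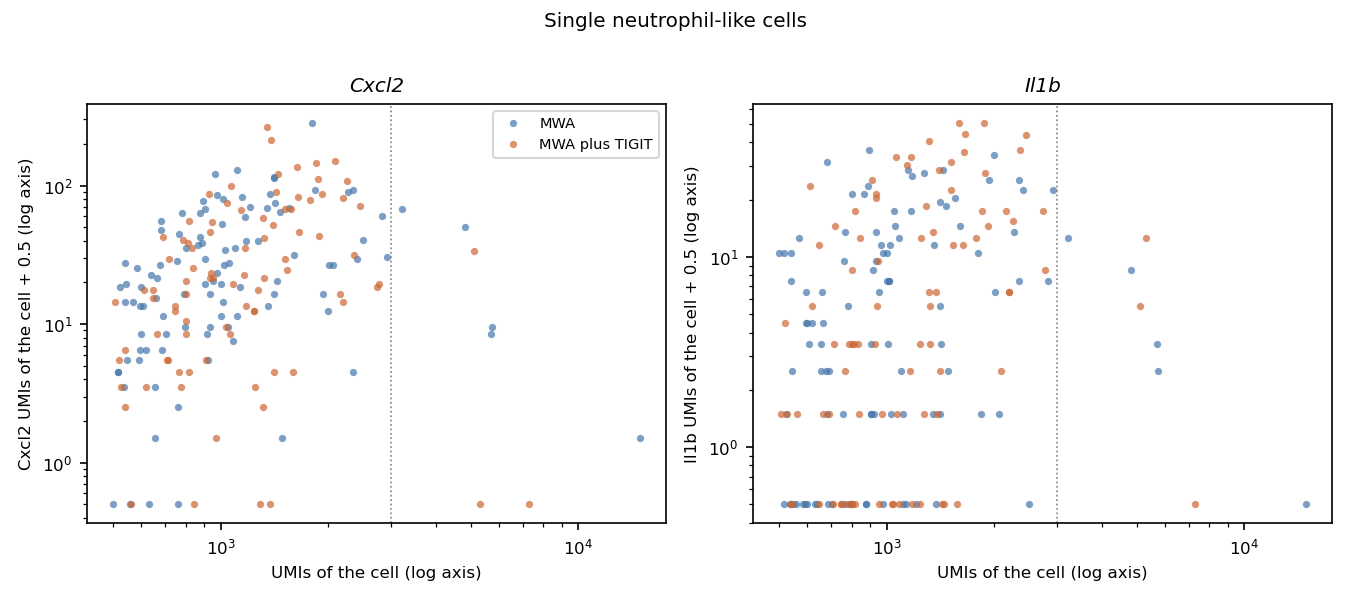
UMIs of single genes in each neutrophil-like cell against all UMIs of that cell, both on log axes, with 0.5 added to the gene's UMIs and the dotted line at 3000 UMIs. Cxcl2 was found in 96.2% and 93.2% of cells, up to 282 and 264 UMIs, and the cells right of the line held 3.71% and 0.963% of its UMIs.

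Outside the neutrophils, Cxcl2 was lower in the MWA plus TIGIT library in every monocyte-like and macrophage-like class. In all of them together it had 1098 CPM (1084 to 1112) and 850 CPM (840 to 860), a ratio of −0.37 (−0.39 to −0.34), and after thinning to 1000 UMIs it was found in 34.5% and 27.1% of cells. The ratio was −0.57 (−0.61 to −0.52) in Arg1, −0.56 (−0.62 to −0.50) in hypoxic and −0.19 (−0.23 to −0.14) in Selenop macrophage-like cells. It was −0.30 (−0.36 to −0.25) in Spp1 and −0.58 (−0.81 to −0.35) in Hp monocyte-like cells. All of these were under 1.5-fold. Cxcl2 was also lower in T and NK cell-like cells, at 38.3 and 23.8 CPM, a ratio of −0.69 (−0.87 to −0.50), and there it was past 1.5-fold, as were 3.49% of genes. The immediate early and dissociation list stood at 6204 and 5588 CPM in monocyte-like and macrophage-like cells. The part of free RNA and of these genes in the result was not tested.

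In DC-like cells Cxcl2 was low and past 1.5-fold higher in the MWA plus TIGIT library, at 78.4 and 146 CPM, a ratio of 0.90 (0.49 to 1.31). In type 1 DC-like cells the ratio pointed the other way, with 25 and 8 UMIs, 46.7 and 22.6 CPM and −1.05 (−2.41 to 0.15), and in mature DC-like cells it was 0.64 (−0.76 to 2.19) with 7 and 14 UMIs. In type 2 DC-like cells, 13 cells in each library held its 49 and 120 UMIs, and 1 cell of the MWA plus TIGIT library held 52. In this class 19.1% of 3628 genes were past 1.5-fold higher. In the same class C1q macrophage markers summed to 911 and 1506 CPM and Arg1 macrophage markers to 155 and 619 CPM, against 30044 and 35015 CPM of C1q markers in monocyte-like and macrophage-like cells. Their part in the result was not tested. The direction turned to −0.42 with doublets kept and to −0.68 with a limit of 5% mitochondrial UMIs.

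**Figure D4:**
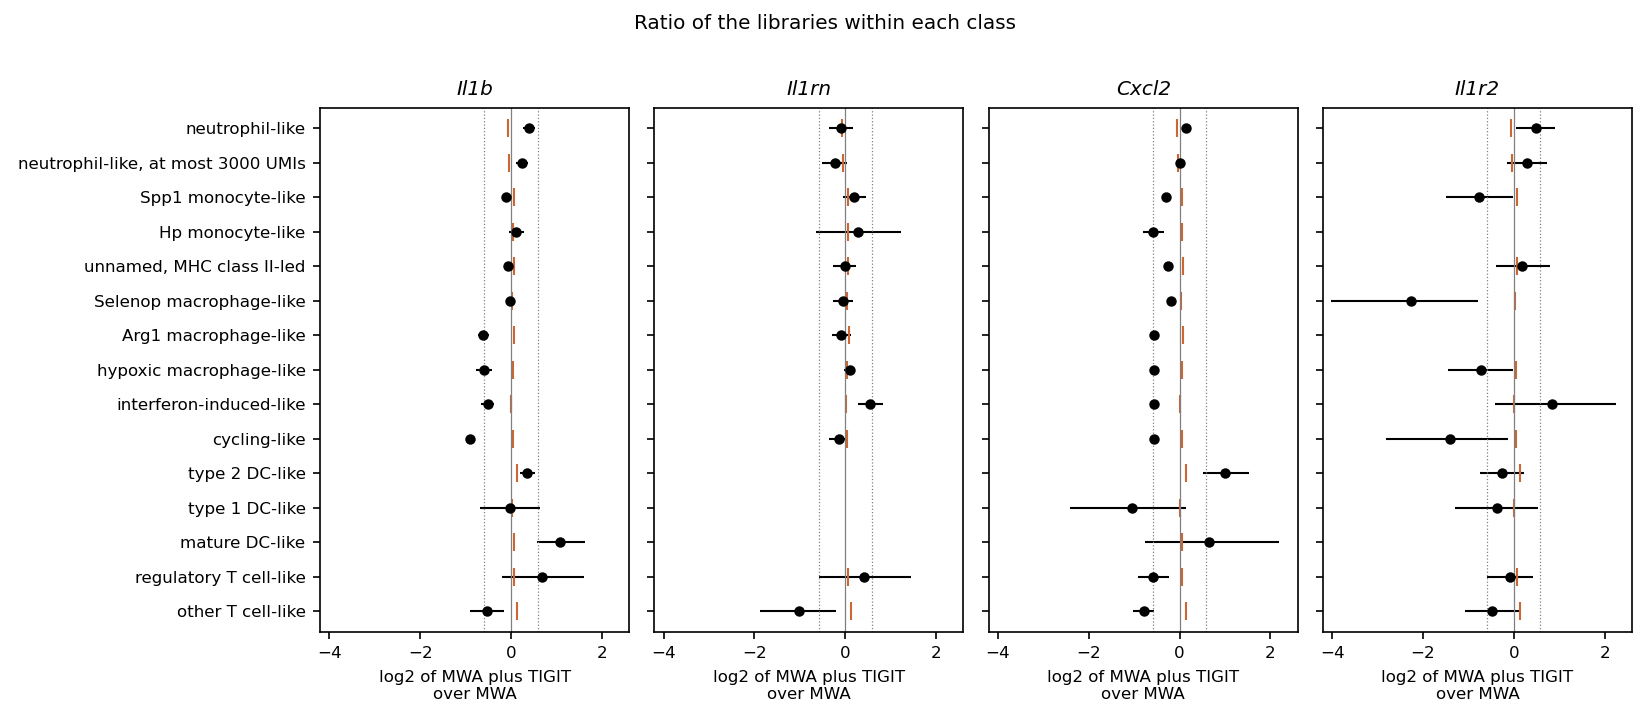
Log2 ratio of MWA plus TIGIT over MWA for the genes in each class, with exact conditional binomial 95% intervals that cover counting error only. Cxcl2 lay below 0 in every monocyte-like and macrophage-like class and at 0.14 in neutrophil-like cells, and Il1b at −0.61 in Arg1 macrophage-like and 1.09 in mature DC-like cells.

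Cxcl3, a close relative of Cxcl2, was rarer and more restricted, with 493 and 582 UMIs. Neutrophil-like cells had 794 CPM (654 to 955) and 894 CPM (733 to 1079), and Spp1 monocyte-like cells 118 CPM (103 to 134) and 113 CPM (102 to 126). These classes held 22.7% and 18.6%, and 48.5% and 59.3%, of its UMIs. Few cells carried it. In Spp1 monocyte-like cells it was found in 29 of 352 and 20 of 397 cells, with 69 and 108 UMIs in the highest cell. In neutrophil-like cells the tenth of cells with most Cxcl3 held 82.1% and 85.2% of its UMIs, and every cell with Cxcl3 also had Cxcl2. The ratio was 0.17 (−0.22 to 0.57) in neutrophil-like cells, or −0.0023 (−0.40 to 0.39) without the cells over 3000 UMIs, and −0.06 (−0.30 to 0.19) in Spp1 monocyte-like cells.

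Cxcl1 was found in other cells. No UMI was found in 104 neutrophil-like cells of the MWA library, where a count of 0 allows up to 21.3 CPM, and 1 in 88 cells of the MWA plus TIGIT library. Its levels were 24.6 and 20.6 CPM in Arg1, 28.1 and 22.4 CPM in hypoxic and 9.17 and 10.3 CPM in Selenop macrophage-like cells, and these classes with the monocyte-like ones held 58.6% and 64.5% of its UMIs. In all of them together the ratio was −0.11 (−0.30 to 0.08). In interferon-induced-like cells Cxcl1 had 44 and 5 UMIs, a ratio of −3.55 (−5.24 to −2.22), but the 44 UMIs came from 8 of 178 cells and 15 from a single one. The immediate early and dissociation list was also lower there, at 6642 and 4696 CPM, as were neutrophil markers, at 345 and 193 CPM. In this class 6.1% of genes were past 1.5-fold lower.

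**Figure D5:**
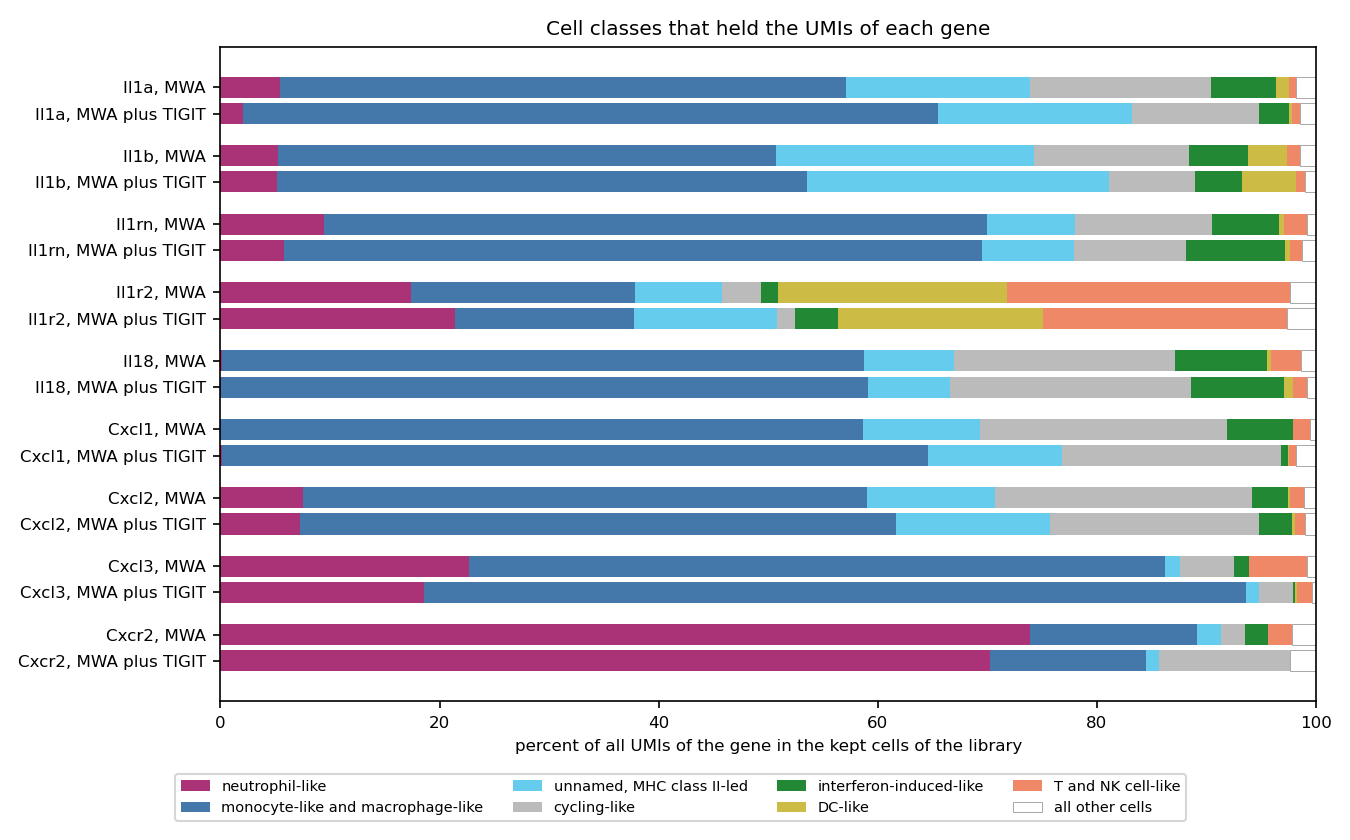
Share of all UMIs of each gene, in percent, that lay in each cell class, for the MWA and the MWA plus TIGIT library. Monocyte-like and macrophage-like cells held 51.4% and 54.4% of Cxcl2 and neutrophil-like cells 73.9% and 70.2% of Cxcr2, whereas Il1r2 was split between neutrophil-like, DC-like, T and NK cell-like and monocyte-like and macrophage-like cells.

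Cxcr2, the receptor for these chemokines on neutrophils, had 46 and 84 UMIs in all, of which 34 and 59 lay in neutrophil-like cells. Its level there was 241 CPM (167 to 337) and 488 CPM (372 to 630), a ratio of 1.02 (0.39 to 1.67), the only one of the 7 genes past 1.5-fold higher. Without the cells over 3000 UMIs it was 309 and 504 CPM, a ratio of 0.71 (0.05 to 1.38), where 13.4% of 1288 genes were past 1.5-fold higher. It was found in 21.2% and 29.5% of cells, in 12.2% (4.63 to 24.8) and 38.0% (24.7 to 52.8) of the 49 and 50 cells that could be thinned to 1000 UMIs, but in 14.4% and 15.9% of all of them after thinning to 500 UMIs. With doublets kept the ratio was 0.49, under 1.5-fold. All monocyte-like and macrophage-like cells had 7 and 12 UMIs. Of the cells with Cxcr2, 21 of 22 and 22 of 26 also had Cxcl2. The neutrophil markers were also higher: the 13 summed to 78198 and 146517 CPM, and without the cells over 3000 UMIs to 101023 and 144722 CPM. Their part in the result was not tested.

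Of 68 further genes of the pathway, 35 had at least 20 UMIs in neutrophil-like cells, and 10 were past 1.5-fold higher and 1 lower in the MWA plus TIGIT library, beside 16.0% and 25.1% of all 1611 genes. Their median ratio was 0.21, beside −0.07 over all genes. The one lower gene was Pycard, the inflammasome adaptor, with 17 and 6 UMIs and a ratio of −1.28 (−2.91 to 0.13). Higher were Il1f9, which encodes the IL-36γ agonist of the IL-1 family, with 21 and 60 UMIs and a ratio of 1.74 (1.00 to 2.53), and Il18rap, a chain of the IL-18 receptor, with 5 and 18 UMIs. Among NF-kB genes, Nfkbia, an inhibitor that NF-kB itself induces, was higher, at 2048 and 3450 CPM, a ratio of 0.75 (0.53 to 0.97), and so was Nfkbib, with 8 and 15 UMIs. Irak3, a brake on IL-1 receptor signaling, had 7 and 14 UMIs. Of 9 tested genes of neutrophil growth and traffic, 5 were higher, among them the integrin Itgam with a ratio of 1.10 (0.35 to 1.88), the formyl peptide receptor Fpr1 with 1.04 (0.14 to 1.99), and, named after their values were seen, Csf3r with 0.80 (0.42 to 1.19) and Fpr2 with 0.79 (−0.06 to 1.66). None of 7 co-induced inflammatory genes was past 1.5-fold, from Icam1 at 85.0 and 91.0 CPM and Cebpd at 99.2 and 74.5 CPM to Cebpb at 3203 and 3666 CPM. Il1r1, the signaling receptor, had no UMI in neutrophil-like cells. Without the cells over 3000 UMIs, 7 of 29 genes were higher and 2 lower, Nos2 and Cebpd, beside 13.4% and 20.7% of 1288 genes, with Il1f9 at 1.80 (0.99 to 2.67), Nfkbia at 0.70 (0.47 to 0.93) and Csf3r at 0.67 (0.27 to 1.07). Itgam was then at 0.74 (−0.05 to 1.55), Fpr1 at 0.82 (−0.09 to 1.78) and Fpr2 at 0.52 (−0.34 to 1.40), the last under 1.5-fold, and Pycard had 9 and 6 UMIs. Il18rap then had under 20 UMIs, since Il1f9 was the only gene tested in its list. Of the 2 adaptors and kinases still tested, 0 were past 1.5-fold, so Irak3 was no longer called.

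In all monocyte-like and macrophage-like cells, none of 55 tested pathway genes was past 1.5-fold, beside 2.96% of all genes higher and 3.25% lower, and their median ratio was 0.04, the same as over all genes. The inflammasome list ran from Nlrc4 at 6.52 and 4.82 CPM to Pycard at 293 and 298 CPM. The other lists ran from Traf6 at 14.3 and 12.1 CPM to Tab2 at 69.6 and 74.8 CPM among adaptors and kinases, from Nfkbid at 12.6 and 13.5 CPM to Zfp36, which degrades cytokine transcripts, at 596 and 567 CPM among NF-kB genes, and from Il18r1 at 0.843 and 0.732 CPM to Il18bp, the soluble inhibitor of IL-18, at 17.2 and 20.7 CPM among ligands and receptors. Cebpb was highest of the co-induced genes, at 644 and 684 CPM, with Ptges lowest, at 1.46 and 1.26 CPM, and Itgam and Ppbp bounded the neutrophil list, at 346 and 382 CPM and at 0.665 and 0.765 CPM. In DC-like cells 9 of 42 pathway genes were past 1.5-fold higher and 2 lower, beside 13.4% and 7.82% of all genes. Among them were 5 of 14 NF-kB genes, named after their values were seen: Nfkb1, Relb, Nfkbie, Tnfaip3 and Bcl3, with a median ratio of 0.49 for the 14 genes beside 0.09 for all genes. The part of the class mix of DC-like cells in these values was not tested.

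The likeness of other genes to these levels was taken as Pearson's r of log2(CPM + 1) over 13 classes in both libraries, that is 26 points that share libraries and cells, among 5076 genes. It is a description with no p. The 13 were the named classes with at least 50 cells in each library, so the DC-like classes and the MHC class II-led cluster were left out. Most like Il1b were Mefv, with r = 0.959, Tarm1 with 0.955 and Trem1 with 0.948. In the DC-like cells left out, Trem1 had only 11.6 and 14.4 CPM, beside 550 and 915 CPM of Il1b. Most like Il1rn were Pfkfb3 with 0.956, Ninj1 with 0.955 and Cxcl2 with 0.955. Most like Cxcl2 were Il1a with 0.972, Ptgs2 with 0.970 and Slc7a11 with 0.965. Cxcl3 was nearest to Ptgs2os2 with 0.890, Mirt2 with 0.877 and Inhba with 0.858, and Il1r2 to Ifrd1 with 0.898, Btbd9 with 0.869 and Fem1c with 0.866. Cxcr2 was nearest to Mrgpra2b with 0.981, Ly6g with 0.978 and Retnlg with 0.972. For all of these but Mefv, the highest level among the 13 classes was that of neutrophil-like cells.

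Over whole libraries, Cxcl2 had 852 and 698 CPM, a ratio of −0.29 (−0.31 to −0.27), and −0.37 with the class shares of the MWA library held fixed. Il1b had 277 and 267 CPM, a ratio of −0.05 (−0.09 to −0.02), and −0.19 with fixed shares. Il1rn had 50.2 and 55.3 CPM, a ratio of 0.14 (0.07 to 0.21), and 0.05 with fixed shares. An unnamed cluster led by Mcpt2, with 3 cells of the MWA and 152 of the MWA plus TIGIT library, held 47 Il1b and 44 Cxcl2 UMIs of the latter.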

How the data were processed

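Single-cell 3′ RNA libraries of sorted CD45+ cells were sequenced by the authors, who deposited 1 matrix of raw UMI counts per library. The file headers name cellranger 4.0.0, whereas the submitters' processing notes name Cell Ranger 6.1.1 and build mm10. This counting uses strand, so the genes antisense to Il1a, Il1b, Il1r2 and Il18 are counted apart. From the deposited counts, cells under 200 genes or over 10% mitochondrial UMIs were dropped, and doublets were scored against simulated ones (simulated share 0.25, 20 principal components, 100 neighbors) and removed at 0.8% per 1000 barcodes, which took 806 and 786 barcodes. Of 300 doublets added as a check, 67.67% and 63.33% were found. The study also left out cells over 5000 UMIs, which were 55.2% and 60.3% of the deposited barcodes, and this was an alternative here. The total UMIs were 66152465 and 78751205, and 37 barcodes occurred in both libraries.

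Libraries were integrated with Seurat 5.3.0 in R 4.3.3 (2000 variable features, 40 principal components, resolution 0.1 for all cells and 0.5 for myeloid and lymphoid cells). The 9 genes and 68 pathway genes were left out of the features and of the naming. A class was named from markers when at least 2 of its 10 leading genes and 3 detected genes were markers of it, or 1 and 6. The naming rule, the limit of 3000 UMIs and the motifs were chosen after the data had been seen, and the 9 genes and all gene lists were chosen with earlier results of these data known. A gene was tested in a class at 20 UMIs or more over both libraries and called past 1.5-fold, without any p-value. Named pathway genes were those past 1.5-fold in neutrophil-like cells or in all monocyte-like and macrophage-like cells, at most 3 per list and direction by size, and the highest and lowest of a list without one. A gene that this rule would name is not reported here. Genes named as like another had the 3 highest values of Pearson's r. Intervals are exact at the 95% level, and a count of 0 was read as at most 3 counts. On simulated counts, 96.0% of 1488 intervals in neutrophil-like, 95.4% of 12081 in monocyte-like and macrophage-like and 96.5% of 6556 in DC-like cells held the true ratio. Of 182, 199 and 186 genes given a change there, 65.9%, 93.5% and 78.5% were found on the true side. Where UMIs are independent, exact intervals hold the true ratio at their stated level by construction. The check therefore does not cover the spread between cells. Python 3.11.15, numpy 2.4.6, scipy 1.17.1, pandas 2.3.3, scikit-learn 1.9.0, matplotlib 3.10.9 and edgeR 4.0.16 (for the factors of 1 alternative, trimmed mean of M values, TMM) were used. Groups came from the treatment labels.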

Additional observations from a re-analysis of the deposited data

Results flagged for a closer look

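The ratio of Il1b between the libraries, MWA plus TIGIT over MWA on the log2 scale, pointed in opposite directions in different classes past 1.5-fold. It was 1.09 in mature DC-like cells, against −0.61 in Arg1 macrophage-like, −0.60 in hypoxic macrophage-like and −0.89 in cycling-like cells. With 1 library per group the difference between the classes was not tested. The mature DC-like class had 34 cells in each library, and the markers of T cells in it summed to 68.9 and 285 CPM. Their part in the result was not tested.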

How the results depend on the processing

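No paired analysis was possible because each group had 1 library. Alternatives that changed the cell filter or the features were clustered and named anew, so the cells of a class changed as well. Of 161 values of 19 ratios under the alternatives, 140 had the direction reported, and 10 ratios had it under every alternative run, among them Cxcr2 (0.49 to 1.33) and Il1a (−1.75 to −0.82) in neutrophil-like, Cxcl2 (−0.41 to −0.27) in monocyte-like and macrophage-like and Il1b (0.46 to 0.92) in DC-like cells. Some of this agreement was built in. Resolution 1.0 gave 104 and 88 neutrophil-like and 147 and 112 DC-like cells, the numbers of the main analysis, so it could change little there. TMM shifted all ratios of a class by the same amount, −0.036 in monocyte-like and macrophage-like and −0.080 in DC-like cells. It could therefore turn only ratios near 0. Leaving out cells over 3000 UMIs, S100a8 and S100a9, or the cell with most UMIs of a gene was chosen after seeing the data. In neutrophil-like cells the ratio of Il1b was −0.19 with doublets kept, 0.050 with at most 5% mitochondrial UMIs, 0.69 with the 9 genes and the list among the features, 0.59 with TMM and 0.24 without cells over 3000 UMIs. That of Cxcl2 was −0.44, −0.18, 0.49, 0.33 and 0.0058 in the same order, and 0.24 without S100a8 and S100a9. Of the 7 genes with at least 20 UMIs there, 0 were past 1.5-fold higher and 2 lower with doublets kept. With the genes among the features and with TMM, 3 were higher. For these counts, and for those of the other classes below, the share of all genes past 1.5-fold was not taken under the alternatives, so they cannot be set beside it. In monocyte-like and macrophage-like cells the ratio of Cxcl2 was −0.41 with doublets kept, −0.27 without cells over 5000 UMIs, −0.33 with the genes among the features and −0.40 with TMM, and that of Il1b was −0.54 without cells over 5000 UMIs and −0.079 with at most 5% mitochondrial UMIs. Past 1.5-fold lower were 2 genes without cells over 5000 UMIs and 0 with doublets kept, with at most 5% mitochondrial UMIs, with the genes among the features and with the T and NK cell level subtracted, which for Il1r2 exceeded its level in these cells and left no ratio. In DC-like cells the ratio of Il1b was 0.92 with doublets kept and 0.46 with at most 5% mitochondrial UMIs, and that of Cxcl2 turned to −0.42 and −0.68, and was 1.61 with the T and NK cell level subtracted. Past 1.5-fold higher were 1 gene with doublets kept and 0 with at most 5% mitochondrial UMIs, where 2 were lower. No DC-like class was found without cells over 5000 UMIs.

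Subtraction of the T and NK cell level left Il1b at 305 and 281 CPM and Cxcl2 at 1060 and 826 CPM in monocyte-like and macrophage-like cells, and Cxcl2 at 40.1 and 122 CPM in DC-like cells. Thinned to 500 UMIs, the share of monocyte-like and macrophage-like cells with Cxcl2 differed by −5.39 percentage points. With doublets kept, neutrophil-like cells held 4.20% and 4.58% of Il1b, 7.13% and 4.72% of Il1rn and 5.65% and 6.22% of Cxcl2 UMIs. Monocyte-like and macrophage-like cells then held 62.0% and 67.6% of Il1b, 58.2% of Il1rn in the MWA library and 57.4% and 60.9% of Cxcl2, and DC-like cells of the MWA library 3.01% of Il1b and 0.469% of Cxcl2. In that setting there were 3558 and 3753 monocyte-like and macrophage-like cells, against 2886 and 3064 in the main analysis. The latter held 7117 of 15674 and 8699 of 17995 Il1b UMIs, and the MHC class II-led cluster, counted apart, 3692 and 4966. Of the pathway lists, 6 of 19 genes were higher and 0 lower in neutrophil-like cells at 50 UMIs or more, beside 12.7% and 22.9% of 699 genes. In DC-like cells 1 of 31 was lower at 50 UMIs or more, beside 3.72% of 4109 genes. With TMM 5 were higher there, a setting for which the share of all genes was not taken. TMM moved all ratios in neutrophil-like cells by 0.19 and in T and NK cell-like cells by −0.11. The cause was not tested for any of these shifts. With 1 library per group, the variation between mice and between libraries cannot be told apart from that between the groups.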
